A study of Caenorhabditis elegans with 2 samples.

Results

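Of the 1353 peaks of tagged SNU-23 on the X chromosome, 750 had their summit within 500 bp of an annotated gene 5' end, and these 750 peaks, of 6675 in the final list, are described here. They were chosen by position alone: the chromosome and the distance from the summit to a 5' end of any annotated gene, coding or not. The peaks come from chromatin immunoprecipitation sequencing (ChIP-seq) of whole Caenorhabditis elegans hermaphrodites of strain OP528, collected as first-stage (L1) larvae 6 hours after synchronisation, which was at the stage of larvae starved after bleaching. The strain carries the integrated transgene wgIs528, a genomic construct with snu-23 fused at its 3' end to TY1, EGFP and 3xFLAG tags and with unc-119(+) as a selection marker, in the unc-119 (tm4063) background. An antibody against GFP precipitated the tagged protein. The series has 1 group of 2 biological replicates, both of this strain and stage, so nothing can be compared between conditions, and cells of all tissues are mixed.

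SNU-23 is the worm homolog of a zinc finger protein of the U4/U6.U5 tri-snRNP, the particle that joins the spliceosome before its activation. The X chromosome is present as a pair in hermaphrodites and singly in males, and in hermaphrodites a dosage compensation complex binds along both copies and lowers their transcription. X is known to be poor in operons and in genes used mainly in the germ line, and rich in genes of neurons and other somatic cells. RNA polymerase II makes messenger RNAs and most small nuclear RNAs, while RNA polymerase III makes transfer RNAs from promoter elements inside the gene. Annotated 5' ends of worm coding genes are often trans-splice sites that lie downstream of the transcription start.

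Some sequences at or near these summits are shown first, since the word content and the position of the peak relative to the gene recur in the results. The first set gives the 101 bp centred on the summit for the strongest X peak, for 4 of the strongest peaks upstream of coding genes, for the sex determination gene xol-1, and for peaks at microRNA and small nucleolar RNA genes. Each is written 5' to 3' on the strand of the named gene, from the RefSeq genome of assembly WBcel235, which matches ce11. Capitals mark the GA repeat GAGAGA, the word GCGCAGG, the word CTGCGTC, chosen after the data were seen, and the E-box CACGTG, on either strand. The windows shown are not typical in word content. Over all 750 peaks GAGAGA was in 28.0%, CTGCGTC in 6.93%, CACGTG in 4.53% and GCGCAGG in 1.47%.
C18A11.13, chrX:8036389-8036489: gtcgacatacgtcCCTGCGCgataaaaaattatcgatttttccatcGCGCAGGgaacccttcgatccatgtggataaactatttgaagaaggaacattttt
puf-9, chrX:5841251-5841351: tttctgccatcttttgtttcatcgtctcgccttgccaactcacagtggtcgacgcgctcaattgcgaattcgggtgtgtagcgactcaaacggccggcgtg
rpl-11.2, chrX:2242948-2243048: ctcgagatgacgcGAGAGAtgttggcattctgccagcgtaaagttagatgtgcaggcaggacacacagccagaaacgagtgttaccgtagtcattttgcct
hsp-3, chrX:6092130-6092230: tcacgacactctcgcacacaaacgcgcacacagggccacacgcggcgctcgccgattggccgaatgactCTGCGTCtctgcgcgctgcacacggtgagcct
epg-7, chrX:7334486-7334586: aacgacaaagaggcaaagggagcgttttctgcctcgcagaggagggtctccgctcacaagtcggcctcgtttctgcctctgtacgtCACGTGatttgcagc
xol-1, chrX:8041134-8041234: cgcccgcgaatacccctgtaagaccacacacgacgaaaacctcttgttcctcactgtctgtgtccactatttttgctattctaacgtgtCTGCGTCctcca
cel-mir-54, chrX:13145310-13145410: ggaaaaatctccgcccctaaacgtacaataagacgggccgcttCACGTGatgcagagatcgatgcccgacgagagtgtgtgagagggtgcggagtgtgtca
D2021.6 and sdha-1, chrX:8546182-8546282: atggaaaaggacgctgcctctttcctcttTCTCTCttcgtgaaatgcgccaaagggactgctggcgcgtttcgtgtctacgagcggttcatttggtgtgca
The summits lay 235 bp upstream of C18A11.13, 291 bp upstream of puf-9, 380 bp upstream of rpl-11.2, 56 bp upstream of hsp-3, 178 bp upstream of epg-7, 129 bp upstream of xol-1, 266 bp upstream of cel-mir-54 and 28 bp upstream of D2021.6. The strongest peak held GCGCAGG 2 times, 1 match on each strand, in a window with a GC content of 41.6%, while the hsp-3 window reached 65.3%.

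The second set shows 3 tRNA genes with strong peaks, each as 50 bp upstream followed by the whole gene in capitals, on the gene's strand. In all 3 the summit lies upstream of the printed stretch.
tRNA-Gln gene WBGene00023117, chrX:410341-410462: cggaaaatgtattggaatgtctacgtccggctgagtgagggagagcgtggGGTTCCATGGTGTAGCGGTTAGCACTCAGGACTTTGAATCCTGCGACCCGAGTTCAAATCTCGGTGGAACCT
tRNA-Gly gene WBGene00023110, chrX:3036114-3036235: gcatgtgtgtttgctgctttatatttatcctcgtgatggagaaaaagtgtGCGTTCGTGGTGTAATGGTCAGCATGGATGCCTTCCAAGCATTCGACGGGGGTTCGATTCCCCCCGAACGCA
tRNA-Asn gene WBGene00023042, chrX:8404449-8404571: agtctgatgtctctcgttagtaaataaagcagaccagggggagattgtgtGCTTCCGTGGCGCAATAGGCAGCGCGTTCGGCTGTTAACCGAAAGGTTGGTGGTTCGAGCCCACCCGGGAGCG
The tRNA-Gly and tRNA-Asn genes hold the word GGTTCGA, the letters most often found in the B box, the internal promoter element that binds RNA polymerase III factor TFIIIC, from base 51 and base 52 of the gene. The summits were 63 bp and 56 bp upstream of these genes, outside the transcribed sequence, and 171 bp upstream of the tRNA-Gln gene. Most X summits near tRNA genes were closer: 128 of 145 (88.3%) lay within 50 bp of the nearest tRNA 5' end. The tRNA-Gly gene shared its peak with a neighbouring tRNA-Glu gene.

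The strongest X peaks at 5' ends stood at the same places in both replicates, which the making of the final list favours. Signal is the authors' value per peak relative to a control, and it is on a different scale in the pooled list than in either replicate. The highest was at C18A11.13, an unclassified non-coding RNA gene (gene at 8036674 to 8036762, plus strand), with 785 in replicate 1, 937 in replicate 2 and 1707 in the pooled list, where it ranked 15 of all peaks. The tRNA-Arg gene WBGene00022939 overlaps C18A11.13 on the other strand, so its 5' end was also in the window, at 318 bp. The next peak lay 291 bp upstream of puf-9, which encodes a PUF family RNA-binding protein (5841592 to 5845987), with 691 and 921 and a pooled 1605. This summit fell within an exon of the non-coding RNA gene W06B11.7, whose 5' end is nearer. These 2 peaks stood apart from the rest, which did not exceed 1181 in the pooled list.

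Peaks 3 to 8 lay upstream of coding genes. The peak with 567 and 622 was 117 bp upstream of the long non-coding RNA gene linc-78 and of AH9.7, and 380 bp upstream of rpl-11.2, the gene of large-subunit ribosomal protein L11. That of zfp-3 had 538 and 650, and that of serp-1.1 had 524 and 656. A peak 433 bp upstream of epn-1, which encodes the endocytic adaptor epsin, had 521 and 642 and was nearer to the non-coding RNA gene T04C10.8. The values were 505 and 630 at epg-7, which encodes a FIP200-like scaffold of autophagy, and 491 and 592 at hsp-3, which encodes the endoplasmic reticulum chaperone BiP. In all 6 the value of replicate 2 was the higher, and neighbours in this order differed by less than the replicates did.

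Other peaks among the strongest 25 stood at non-coding RNA genes without a coding 5' end nearby. R03E9.7 had 514 and 528, and C30E1.9 had 467 and 593, and both peaks were broad, at 2342 and 2594 bp against a median width of 292 bp. The peak at F09A5.11, cel-mir-54 and cel-mir-55 had 442 and 522 and lay in an intron of a coding gene. These microRNAs belong to the family of mir-51, which is broadly expressed and needed in development. Coding genes further down the 25 included sym-4 (364 and 498), bet-2, which encodes a bromodomain protein (329 and 504), and eef-1A.2, which encodes translation elongation factor 1 alpha (324 and 445). The remainder were F17E5.2, C28G1.2, C14A11.9, ZC506.1, K02A6.3, F02C12.3, mans-3, T01C8.9, F58A3.6 and 2 tRNA loci, with pooled signals of 754 to 899.

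**Figure D1:**
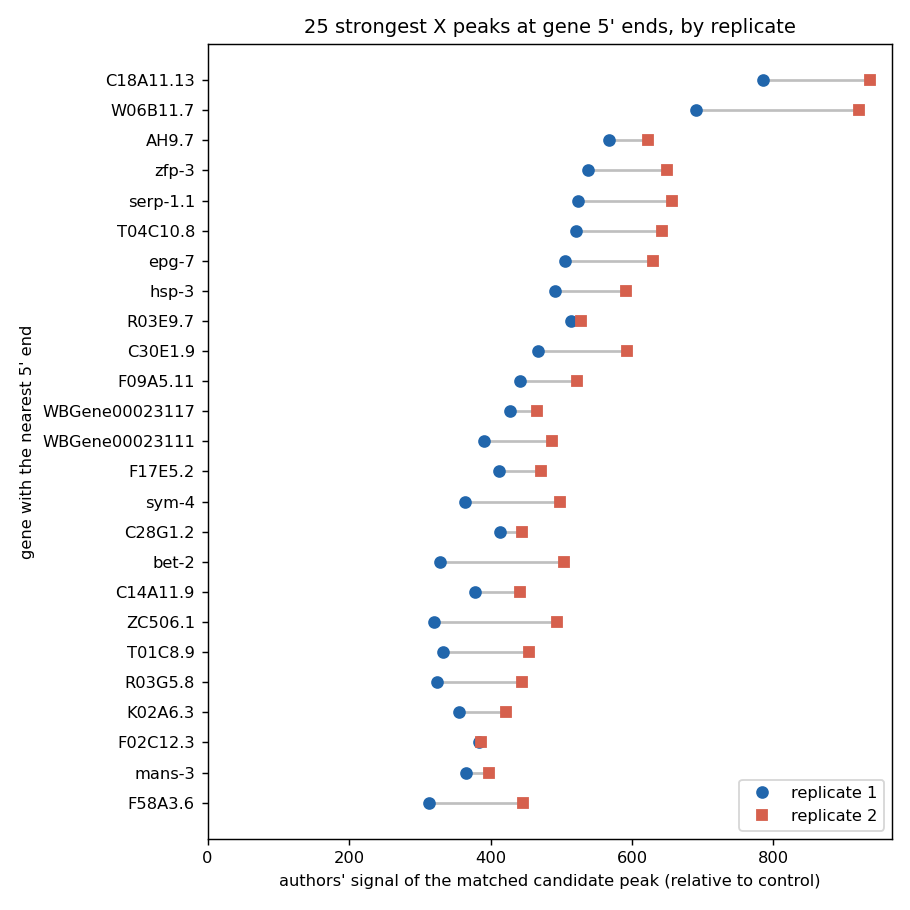
Signal in replicate 1 (circles) and replicate 2 (squares) of the 25 strongest X peaks at gene 5' ends, named by the gene with the nearest 5' end and ordered by pooled signal; the x axis is the authors' signal relative to control. C18A11.13 and W06B11.7, the latter shared with puf-9, stood above the others in both replicates, and the value of replicate 2 was higher in every peak shown.

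Over all 750 peaks the pooled signal ran from 71.8 to 1707 with a median of 167, and the medians were 76.9 in replicate 1 and 91.6 in replicate 2. The weakest were at K08H2.7 (31.1 and 39.0 in the replicates), F08B12.4, C11G6.5, R07E3.4 and F55A4.12. A candidate peak of both replicates matched 748 of the 750, and the log2 ratio of replicate 2 to replicate 1 had a median of 0.23 and an SD of 0.42 over peaks. Of the 750, 669 (89.2%, exact 95% interval 86.8 to 91.3%) had an overlapping peak among the top 6675 of both replicates, a share near the 88.1% of all final peaks. The final list was thresholded by the irreproducible discovery rate, a measure of agreement between lists. Such overlaps are therefore in part set by the selection, and each replicate list offered 30000 candidates to match. The median signal of X was the lowest of the 6 chromosomes in the pooled list and in each replicate. Autosomal peaks at 5' ends had medians of 186 pooled, 88.3 in replicate 1 and 99.7 in replicate 2. By role the pooled medians on X and the autosomes were 174 and 196 at coding genes and 215 and 202 at tRNA genes, so the difference did not run the same way in all roles. X peaks away from 5' ends had a median of 136. These medians are descriptions, with no test.

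Peaks were spread along the whole of X. Each full megabase held between 21 and 66 of them, with a median of 43.0, and neighbouring summits were a median of 12976 bp apart. The density of 42.3 per megabase was within the range of the autosomes, from 31.6 on V to 45.9 on III. Summits were mostly intergenic (464 of 750, 61.9%), 132 lay in exons of RNA genes other than tRNAs, 83 in introns of coding genes, 31 in tRNA genes, 30 in 5' untranslated exons, 5 in coding exons, 4 in 3' untranslated exons and 1 in an intron of an RNA gene. A single gene had its 5' end in the window of 460 peaks, and the others had 2 to 6. Altogether 1107 of 6022 X genes (18.4%) had a summit within 500 bp, against 12.3% of genes on all chromosomes, where the many piRNA genes of the autosomes enter the total.

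A smaller share of X peaks than of autosomal peaks was at gene 5' ends. The shares were 55.4% of 1353 (exact 95% interval 52.7 to 58.1%) and 60.2% of 5322, with an odds ratio of 0.823 (two-sided Fisher's exact test, adjusted exact p = 0.00338 over 15 tests). Each replicate alone gave 55.8% and 55.2% on X and 60.7% and 60.5% on the autosomes, so replicates differed by far less than the chromosomes. X was not alone in this: chromosome III also had 55.4%, and the others had 58.0% to 65.0%. Windows of 500 bp around 5' ends cover 26.5% of X and 30.9% of the autosomes. With a window of 250 bp the difference did not pass the threshold (44.6% and 47.1%, adjusted exact p = 0.149). Peaks of the same libraries are not replicates, and these p-values describe the lists, not worm cultures.

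The kinds of genes at these 5' ends differed more clearly. A coding 5' end lay within 500 bp of 422 X peaks (56.3% of 750, exact 95% interval 52.6 to 59.9%) against 74.4% of 3203 autosomal peaks (odds ratio 0.443, adjusted exact p = 6.0e-21). The replicates gave 57.4% and 56.6% on X, and every autosome was higher than X, from 63.1% on IV to 80.2% on III. A tRNA gene 5' end was near 145 X peaks (19.3%) and 5.06% of autosomal ones (odds ratio 4.50, adjusted exact p = 5.1e-31), and no autosome exceeded 6.01%. The chromosomes also differ in gene content: 1.29% of the bases of X lie within 500 bp of a tRNA 5' end, against 0.371% on the autosomes. For coding 5' ends these shares are 15.0% and 19.6%. Unclassified non-coding RNA genes were the only genes in the window of 167 X peaks (22.3%) and of 12.0% of autosomal ones (odds ratio 2.10, adjusted exact p = 1.7e-11). Peaks between divergent coding genes, with both 5' ends in the window, made up 25 of the 750 (3.33%) and 16.5% on the autosomes (odds ratio 0.175, adjusted exact p = 3.9e-25).

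As a share of the genes present, X and the autosomes were close for coding and unclassified non-coding RNA genes. Of the X coding genes 448 of 2731 (16.4%, exact 95% interval 15.0 to 17.8%) had a peak, near the 16.8% of all coding genes and the 16.9% of autosomal ones (odds ratio 0.968, adjusted exact p = 0.603). Both replicates gave 16.4%. In the stronger 3337 peaks the odds ratio was 0.821 and within 250 bp 0.849, and both passed the threshold. For unclassified non-coding RNA genes the shares were 17.9% of 2520 on X and 18.3% of 5244 on the autosomes. X had 81 head-to-head pairs of coding genes with 5' ends within 1000 bp, or 2.97 per 100 coding genes, and the autosomes had 1691, or 9.81 per 100. A summit stood between the 5' ends of 34 of the 81 pairs (42.0%, exact 95% interval 31.1 to 53.5%) and of 39.3% of the autosomal pairs (odds ratio 1.12, adjusted exact p = 0.689). This last comparison was chosen after the data were seen.

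Among the annotated gene classes drawn in the plot of shares by class, tRNA genes had the highest share on X. Of 276 X tRNA genes, 168 (60.9%, exact 95% interval 54.8 to 66.7%) had a summit within 500 bp, against 54.4% of all tRNA genes and 49.1% of 336 autosomal ones (odds ratio 1.61, adjusted exact p = 0.00804). The replicates gave 62.7% and 60.5% on X and 51.2% and 49.7% on the autosomes. The call was lost within 250 bp (odds ratio 1.36) and in the stronger 3337 peaks (1.11, shares of 37.0% and 34.5%). Of the X tRNA genes 219 have a sequence that occurs more than 1 time among all tRNA genes, and 67.1% of these had a peak against 36.8% of the 57 with a unique sequence. Among genes of unique sequence, a comparison added after the data were seen, the difference from the 31.4% of the autosomes did not pass (odds ratio 1.27, adjusted exact p = 0.630). Reads from identical copies cannot be assigned by sequence within the gene, and how the authors placed them is not given in the sources used here.

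RefSeq names the product of 273 of the 276 X tRNA genes. Peaks were found in every isotype on X with a named product, and the shares lay on both sides of the 60.9% of all X tRNA genes. The highest counts were 17 of 23 tRNA-Glu genes, 16 of 27 tRNA-Arg, 12 of 20 tRNA-Gly, 11 of 18 tRNA-Ser and 11 of 14 tRNA-Val. Then came 10 of 12 tRNA-Asp, 10 of 18 tRNA-Lys, 10 of 20 tRNA-Pro and 9 of 17 tRNA-Leu genes. Of the tRNA-Met genes 7 of 8 had a peak. The lowest share was that of tRNA-Tyr, with 3 of 8. The strongest after the tRNA-Arg locus were the tRNA-Gln gene WBGene00023117 (428 and 466 in the replicates), the neighbouring tRNA-Glu and tRNA-Gly genes WBGene00023111 and WBGene00023110 (391 and 487, 1 peak) and the tRNA-Glu gene WBGene00022947 (414 and 445). The last peak also lay 329 bp upstream of sec-15, which encodes an exocyst subunit. The tRNA-Asn gene WBGene00023042 had 330 and 398, with no other 5' end in the window. The word GGTTCGA was in 63.7% of X tRNA genes with a peak and in 64.8% of those without, so the presence of these letters did not separate them.

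Among other small RNA genes, 8 of 74 microRNA genes on X had a peak (10.8%, exact 95% interval 4.78 to 20.2%), against 21.9% of autosomal ones, and of 33 snoRNA genes, which guide RNA modification, 5 did (15.2%, interval 5.11 to 31.9%), against 38.3%. Both intervals hold the 12.3% of all genes and the 18.4% of all X genes, and the shares were not tested between chromosomes. After cel-mir-54 and cel-mir-55 the highest microRNA gene peaks were at cel-mir-1829c (93.4 and 111), which shared it with a tRNA gene, and cel-mir-8196a (103 and 94.1), where the summit was 45 bp upstream. The others were at cel-mir-47, cel-mir-73, cel-mir-230 and cel-mir-800, with pooled signals of 101 to 122. Among snoRNA genes D2021.6 led with 301 and 401, a peak shared with sdha-1, followed by C53B7.8 (116 and 129) and K09E9.5 (74.1 and 82.7). Long intergenic RNA genes had a peak at 11 of 38 (28.9%, interval 15.4 to 45.9%) and at 14.7% of autosomal ones. Their order was linc-78, linc-43 (157 and 169), linc-33 (153 and 154) and linc-54 (99.0 and 142), and 7 others did not exceed 164 in the pooled list.

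**Figure D2:**
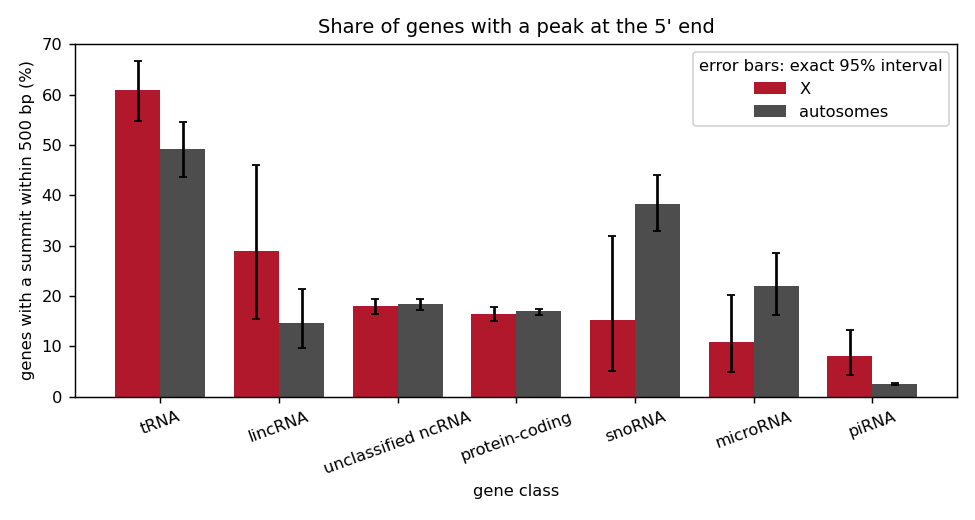
Share of genes of each class with a summit within 500 bp of the 5' end, on X and on the autosomes; bars are percentages of annotated genes and error bars exact 95% intervals, which cover counting error only. tRNA genes on X stood at 60.9%, coding and unclassified ncRNA genes were at nearly the same height on X and the autosomes, and snoRNA and microRNA genes were lower on X.

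The position of the summit depended on the kind of gene. At coding genes 377 of 422 summits (89.3%, exact 95% interval 86.0 to 92.1%) were upstream of the nearest coding 5' end, against 87.6% on the autosomes (adjusted exact p = 0.431). The median was -186 bp on X, with quartiles of -308 and -85.8 bp, and -184 and -182 bp in replicates 1 and 2. On the autosomes it was -146 bp, and -147 and -146 bp in the replicates, so the distance between X and autosomes was larger than that between replicates. Within 50 bp of the 5' end lay 10.7% of X and 14.9% of autosomal summits. The coding genes with a peak also had more room upstream: the next coding gene was a median of 1946 bp away on X and 593 bp on the autosomes. Whether this spacing has a part in the greater distance was not tested.

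Summits at tRNA genes were close to the gene start. Their median was -17 bp, 128 of 145 (88.3%) were within 50 bp, and the replicates gave -18 and -15.5 bp. The autosomal median was -13.5 bp. The 5 snoRNA gene summits were all upstream, at -81 to -28 bp with a median of -45 bp, and the 8 microRNA gene summits had a median of -240 bp. Those of unclassified non-coding RNA genes fell inside or beyond the start, with a median of 57 bp downstream on X and 54 bp on the autosomes, and only 35.1% were upstream. Such a gene was near 19.7% of the X peaks at coding genes and 10.5% of the autosomal ones. These genes are also denser on X, with 2520 on 17718942 bases against 5244 on 82553665 bases of the autosomes. Whether this density has a part in the difference was not tested.

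**Figure D3:**
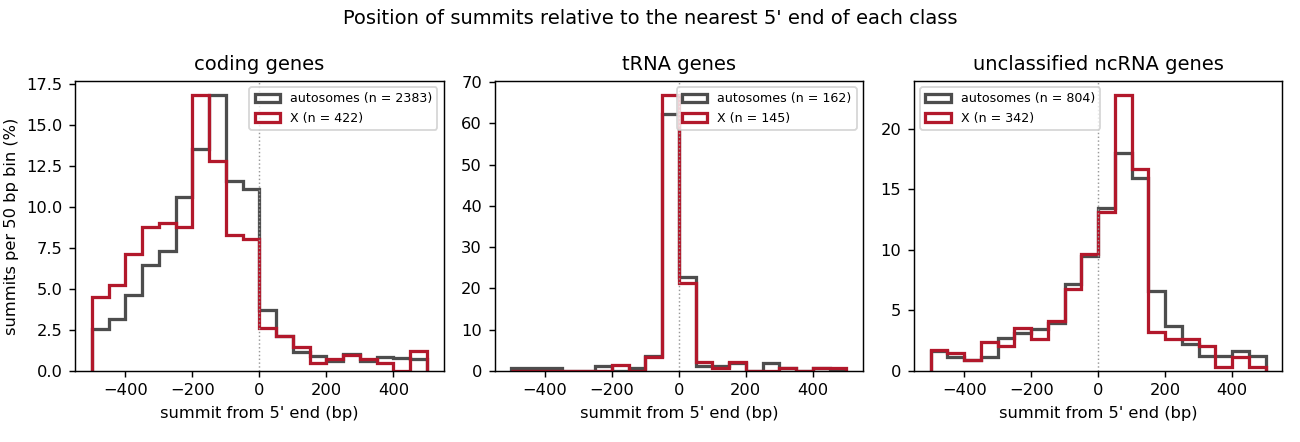
Distance of summits from the nearest 5' end of a coding, tRNA or unclassified ncRNA gene (x axis, bp; negative is upstream) as the percentage of summits per 50 bp bin, for X and the autosomes. Coding summits on X lie farther upstream (median -186 against -146 bp), tRNA summits pile up within 50 bp, and ncRNA summits lie mostly downstream of the 5' end.

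Genes of sex determination and dosage compensation were among those on X with a peak. Of 8 on X, 6 had a summit within 500 bp (75.0%, exact 95% interval 34.9 to 96.8%), with 6 in each replicate, against 16.8% of all coding genes and 5 of the 19 autosomal members. The highest was sdc-2, which encodes the protein that brings the dosage compensation complex to X, with 214 in replicate 1 and 193 in replicate 2 and a summit at -427 bp. Next were ceh-39, a homeobox gene that counts among the X signal elements (92.0 and 130), nhr-25, a nuclear receptor gene (84.8 and 126), and sdc-1, which encodes a partner of SDC-2 (85.8 and 71.8). The gene tra-4, which promotes hermaphrodite fate, had 76.6 and 69.6 with the summit at -49 bp. The gene xol-1, the switch that sets male fate and represses sdc-2, had 43.9 and 51.9, and its pooled 98.8 was below the lower quartile of 104 of all 750 peaks. The X signal elements fox-1 and sex-1 had none. The order of nhr-25 and sdc-1 differed between the replicates.

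All 6 X genes of oxidative phosphorylation had a peak (100%, exact 95% interval 54.1 to 100%), against 16.4% of all X coding genes, and 40 of 65 autosomal ones did. They were sdha-1, which encodes the flavoprotein subunit of succinate dehydrogenase (301 and 401), asb-2 (279 and 328) and asg-2 (206 and 211) for ATP synthase subunits, ucr-2.1 (233 and 265) and ucr-2.2 (236 and 260) for complex III core proteins, and gas-1 for a complex I subunit (52.6 and 49.0). Only gas-1 was below the X median. The peak of sdha-1 was shared with D2021.6, that of ucr-2.1 with nmat-1 and that of asg-2 with glr-6, a glutamate receptor gene. Both genes for subunits of the V1 sector of the vacuolar proton pump, vha-12 (287 and 360) and vha-15 (248 and 281), had a peak and vha-20 had none, so the interval for these 3 genes (9.43 to 99.2%) holds the 16.4%. On the autosomes 10 of 18 genes of the proton pump list had a peak.

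Genes for translation on X were few. All 3 translation factor genes had a peak (interval 29.2 to 100%, against 16.4% of all X coding genes): eef-1A.2, and the cap-binding eIF4E genes ife-2 (207 and 214) and ife-4 (55.6 and 80.0). On the autosomes 28 of 39 translation factor genes did. Of the ribosomal protein genes rpl-11.2 had a peak and rpl-25.1 had none, while 67 of 80 autosomal ones had a peak. For splicing, which the tagged protein takes part in, 4 of 12 X genes had a peak (33.3%, interval 9.92 to 65.1%, which holds the 16.4%) against 68 of 112 on the autosomes. The highest was snrp-40.1, the homolog of the U5 snRNP 40 kDa protein gene (190 and 201, summit at -3 bp), and the others were phf-34 (128 and 136), sft-4 (85.6 and 128) and the cyclophilin gene cyn-8 (72.8 and 86.8). The list was made by symbol, and sft-4 is known for protein export from the endoplasmic reticulum. The splicing regulators fox-1, sup-12, mbl-1 and hrpa-2 had no peak, and X holds no gene of the lists of mitochondrial ribosomal proteins, aminoacyl-tRNA synthetases and proteasome subunits.

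Membrane traffic genes made up the longest set of housekeeping genes on X, and 16 of 28 had a peak (57.1%, exact 95% interval 37.2 to 75.5%), against 16.4% of all X coding genes and 42 of 114 genes of the list on the autosomes. The exocyst genes sec-15 (414 and 445, a peak shared with a tRNA-Glu gene) and sec-3 (339 and 308) led, followed by the dynamin gene dyn-1 (191 and 195). The lowest were vps-52 (38.1 and 45.0) and rab-6.2 (45.1 and 30.8). Of the chaperone genes hsp-3, dnj-14 (258 and 376) and dnj-7 (41.6 and 46.5) had a peak and the small heat shock genes hsp-25 and hsp-43 had none (3 of 5, interval 14.7 to 94.7%, which holds the 16.4%). On the autosomes 35 of 62 chaperone genes and 30 of 94 cytoskeleton and muscle genes had a peak. Cytoskeleton and muscle genes on X had a peak at 11 of 30 (36.7%, interval 19.9 to 56.1%), among them the kinesin gene klp-13 (211 and 343), the actin gene act-4 (143 and 168) and the troponin T gene mup-2 (82.6 and 121). The median pooled signal of these 11 was 98.9, below the 167 of all 750 peaks.

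The lists of genes of neurons, of the body surface and of some other families lay on both sides of the 16.4% of all X coding genes. Not all are many on X: chemoreceptor genes numbered 34 on X and 1331 on the autosomes. None of 37 neuropeptide and insulin-like peptide genes had a final peak, which allows a share of up to 9.49%; replicate 2 alone gave 1. Of 81 ion channel and receptor genes 3 did: glr-6 (206 and 211), lgc-25 (51.7 and 51.9) and trpp-9 (153 and 154), the last listed for its symbol although it encodes a TRAPP trafficking subunit. Collagen and cuticulin genes had a peak at 2 of 48, col-166 (76.2 and 134) and col-167 (38.2 and 45.0). Chemoreceptor genes had 1 of 34, srd-44 (79.6 and 77.6), and C-type lectin and F-box genes 0 of 20, which allows up to 16.8%. Of these 5 lists, all except C-type lectin and F-box genes had an interval wholly below the 16.4%. Their autosomal shares, in the order given, were 6.54%, 6.22%, 8.85%, 0.977% and 3.51%, against 16.9% of all autosomal coding genes. In the synapse and axon list 6 of 26 had a peak (23.1%, interval 8.97 to 43.6%), an interval that holds the 16.4%, led by unc-115, which encodes an actin-binding protein (232 and 249), the liprin-alpha gene syd-2 (201 and 197) and sax-1 (89.1 and 116). Of 60 genes of lipid and intestinal metabolism 5 did (8.33%, interval 2.76 to 18.4%, which also holds the 16.4%), with gst-42 (69.3 and 96.8), gst-36 (51.8 and 93.8) and ugt-50 (53.3 and 52.1) the highest. That count was 7 in replicate 1 alone and 3 in replicate 2 alone. On the autosomes the synapse and axon list had 21.3% and the lipid and intestinal metabolism list 14.2%.

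The lists of regulatory genes all had intervals that hold the 16.4% of all X coding genes. Of 27 nuclear hormone receptor genes 8 had a peak (29.6%, exact 95% interval 13.8 to 50.2%), of which nhr-1 (329 and 343), nhr-35 (164 and 238) and nhr-32 (148 and 215) were the highest. In the list of GATA, zinc finger and other factors 9 of 35 did (25.7%, interval 12.5 to 43.3%), led by zfp-3, the unfolded protein response gene atf-6 (214 and 277) and lin-14, the heterochronic gene that specifies L1 fates (178 and 239). The gut GATA factor gene elt-2 had none. Homeobox and bHLH genes had 4 of 38 (10.5%, interval 2.94 to 24.8%), with mdl-1 (160 and 140), mxl-3 (145 and 132) and ceh-39 the highest. Kinase and signalling genes had 6 of 40 (15.0%, interval 5.71 to 29.8%), led by the salt-inducible kinase gene kin-29 (281 and 404), the FGF gene egl-17 (195 and 197) and cdk-11.2 (146 and 168). The egl-17 summit was 283 bp downstream of its 5' end and nearer to a tRNA gene. On the autosomes 18.6% of nuclear hormone receptor genes and 24.4% of the GATA, zinc finger and other factor genes had a peak. Homeobox and bHLH genes had 6.80% there, and kinase and signalling genes 19.2%.

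**Figure D4:**
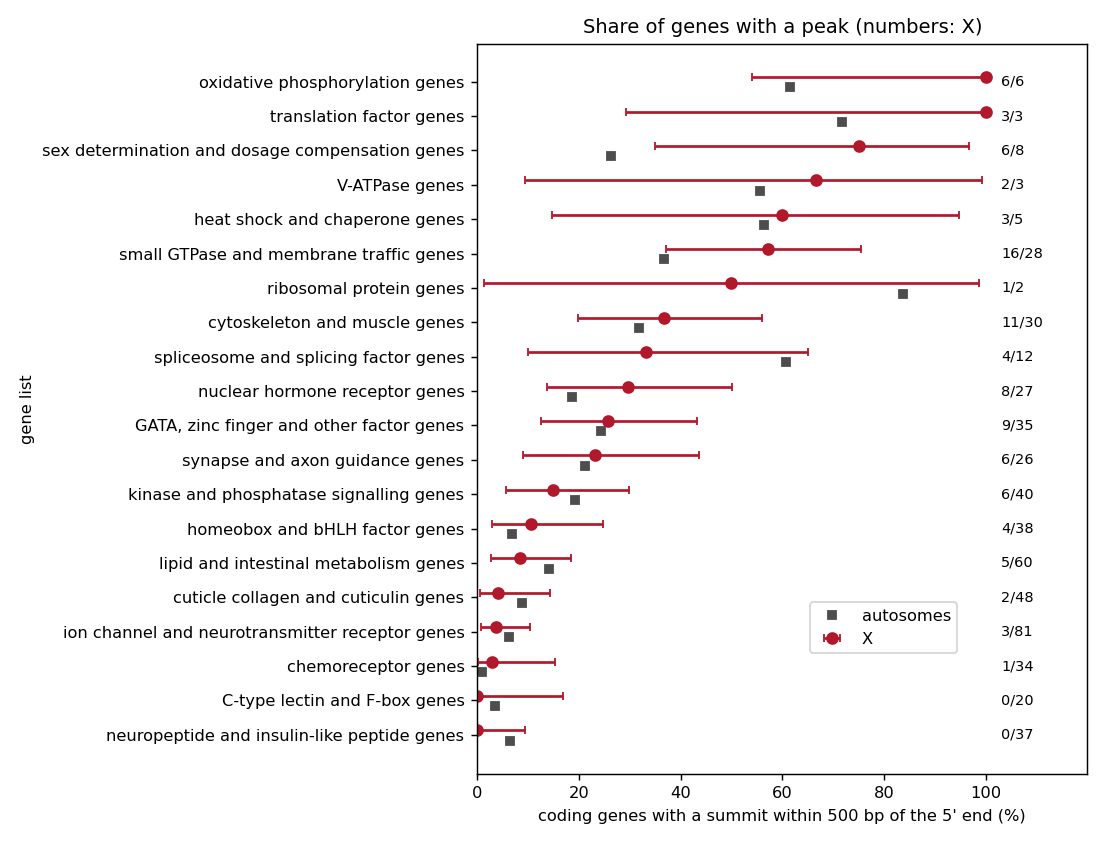
Share of X genes in each list with a summit within 500 bp of the 5' end (red circles with exact 95% intervals, counts at the right) and the same share on the autosomes (grey squares). Lists of oxidative phosphorylation, translation factor and sex determination genes lie at 75.0% or above on X, while neuropeptide, lectin and F-box, chemoreceptor, ion channel and collagen genes lie below 5%.

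The sequence under the summits was rich in GC compared with its surroundings. Over the 750 peaks the 101 bp at the summit had a mean GC content of 48.1% and windows centred 500 bp to either side 34.8%, a difference of 13.3 percentage points (SD 9.02 over peaks), and 12.8 and 13.2 points in replicates 1 and 2. On the autosomes the means were 45.9% and 36.4%, a difference of 9.50 points. At the summit itself coding peaks of X and the autosomes had the same GC content, 50.3% and 50.5% in 25 bp, and 100 bp away it was 38.6% and 39.0% on X but 33.1% and 32.6% on the autosomes. The GC-rich stretch at coding genes was thus broader on X. Peaks at unclassified non-coding RNA genes alone had the broadest, with 40.6% and 38.9% still 200 bp away on X and 39.3% and 38.3% on the autosomes.

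**Figure D5:**
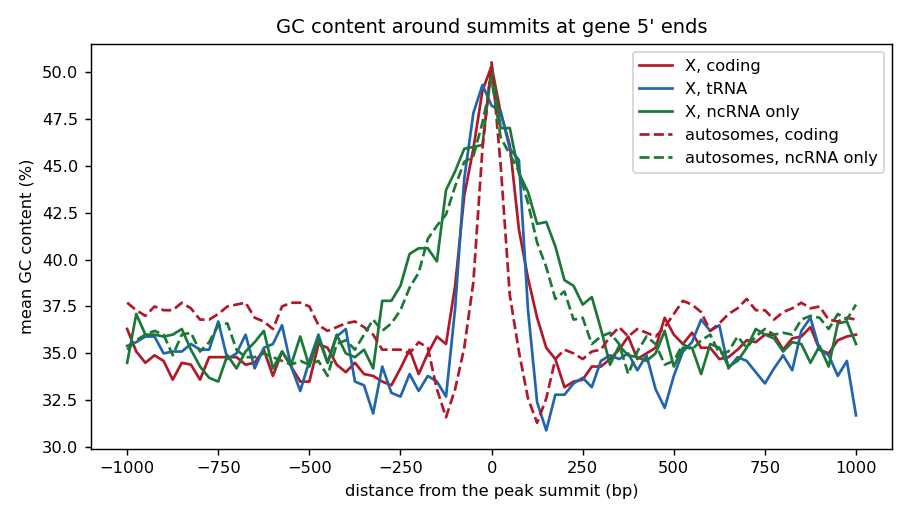
Mean GC content in 25 bp windows (y axis, %) by distance from the summit (x axis, bp, along the chromosome) for X peaks at coding genes, at tRNA genes and at ncRNA genes alone, with autosomal coding and ncRNA peaks as dashed lines. At 100 bp from the summit the X coding line is at 38.6% and 39.0%, above the dashed autosomal coding line at 33.1% and 32.6%.

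Words were counted on both strands within 50 bp of the summit. GAGAGA was in 28.0% of X peaks, 5.07% of the flanking windows and 4.91% of all 101 bp windows of X, and in 25.9% of autosomal peaks (adjusted exact p = 0.313). The share was 30.6% at X coding genes, 23.8% at tRNA genes and 26.9% at non-coding RNA genes alone. Among peaks at coding genes alone, a comparison added after the data were seen, it was higher on X than the 23.7% of the autosomes (odds ratio 1.42, adjusted exact p = 0.00613), and in the stronger 3337 peaks it was 33.9% against 25.3% (odds ratio 1.52, adjusted exact p = 0.00139). The E-box CACGTG was in 4.53% of X peaks, 1.73% of flanks and 1.32% of all windows, and 4.87% of autosomal peaks (adjusted exact p = 0.776). The TATA-like TATAAA was rarer at X summits (5.47%) than in their flanks (13.6%) or in all windows (12.1%), and was in 4.50% of autosomal peaks (adjusted exact p = 0.313).

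Fewer X than autosomal peaks held TTTCAG, the letters of the worm 3' splice site, with 2.93% and 6.12% (odds ratio 0.464, adjusted exact p = 8.7e-04), against 17.5% of the X flanks and 17.1% of all X windows. The autosomal flanks held TTTCAG in 22.7%, more often than those of X. The replicates gave 3.35% and 2.54% at X peaks and 6.17% and 5.51% at autosomal peaks. Within 25 bp of the summit the difference did not pass (1.60% and 2.28%). TTTTTTTT was in 2.53% of X and 4.56% of autosomal peaks (odds ratio 0.544, adjusted exact p = 0.0184) and in 11.7% of all X windows, but neither replicate alone passed the threshold (odds ratios of 0.685 and 0.676). The call was also lost with a 250 bp window (0.646) and in the stronger 3337 peaks (0.496), and within 25 bp of the summit the direction turned (1.10). Flanks held TTTTTTTT in 12.7% on X and 10.3% on the autosomes. The tRNA word GGTTCGA was in 3.07% of X and 1.06% of autosomal peaks (odds ratio 2.95, adjusted exact p = 6.5e-04) and in 0.649% of all X windows. Of the 23 X peaks with it 16 were at tRNA genes without a coding 5' end nearby, and among peaks at coding genes the difference did not pass (odds ratio 1.89, adjusted exact p = 0.388).

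GCGCAGG is part of the MEX motif, known from the sites where the dosage compensation complex is recruited to X. It was found in 11 X peaks (1.47%, exact 95% interval 0.734 to 2.61%), 0.267% of their flanks and 0.184% of all 101 bp windows of X. On the autosomes it was in 0.812% of peaks (odds ratio 1.82, adjusted exact p = 0.143), so the higher share on X did not pass the threshold. The strongest X peak, at C18A11.13, was the only 1 of the 11 with 2 matches. The next were at C49F8.10 (282 and 288 in the replicates), R04E5.9 (211 and 238), WBGene00023035 near egl-17 (195 and 197) and T25C12.8 near lin-14 (178 and 239). The others were at 21ur-14279, sec-16A.2, C15C7.12, apm-3, K07E3.2 and rab-6.2. A match to these letters is not a measured site of the complex.

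The limit of 500 bp cuts through a continuous set of distances. The members just inside it were F52H2.5 at 471 bp, C24H10.2 at -472 bp, cel-mir-47 at -477 bp, abhd-3.2 at -479 bp and got-1.2 at -480 bp, with pooled signals of 98.8 to 177. The X peaks just outside were nearest to F13D11.4 at -501 bp, nfki-1 and T27B1.8 at 502 bp, C16H3.7 at -506 bp and C04A11.7 at -508 bp, with 78.2 to 175.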

How the data were processed

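Per the deposited file descriptions, the authors called candidate peaks on each replicate and on both pooled, each with a control alignment, and made a final list thresholded by the irreproducible discovery rate. The lists are on ce11. Peak caller, aligner and versions: not given in the sources used here. Each deposited list holds 30000 candidates (6675 in the final list), with a signal relative to control, a −log10 q-value and a summit. The deposited −log10 q-value was at its ceiling of 4.38 in all 6675 final peaks and was not used. Depth is unknown. Whether the cultures were separate beyond the label of biological replicate is not stated.

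Summits (1-based) were set against Ensembl release 115 gene starts and the RefSeq WBcel235 genome, for 6 chromosomes. A peak was a member when a 5' end of any of 46890 genes lay within 500 bp. Roles were ranked coding, tRNA, microRNA, snoRNA, then ncRNA alone. Replicate values are those of the overlapping candidate, and replicate error comes from repeating the measurement on the top 6675 candidates of either replicate. Tests of shares were Fisher's exact, two-sided (SciPy 1.17.1), Benjamini-Hochberg adjusted over 15 tests, threshold 0.05, with exact (Clopper-Pearson) 95% intervals. Both take peaks or genes to be independent, which a peak shared by adjacent genes is not, all peaks come from 2 libraries, and both cover counting error only. The 31 gene lists, defined by symbol or class, are described by counts. The calculations were tested on simulated peaks. Genes were named for the 25 strongest members, the 3 strongest in each list and role, the 5 weakest and the 5 on either side of the window limit; others named were chosen after their values were seen. Members, lists and words were chosen with earlier results of these data known.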

Additional observations from a re-analysis of the deposited data

How the results depend on the processing

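No paired analysis was possible because the series has 1 group. Values below are odds ratios of X to autosomes unless named otherwise. With a 250 bp window the share at 5' ends was no longer past the threshold (0.903), nor were tRNA genes with a peak (1.36) or TTTTTTTT (0.646), while coding genes with a peak passed (0.849). In the stronger 3337 peaks GAGAGA (1.52) and coding genes with a peak (0.821) passed, and tRNA genes with a peak (1.11), GGTTCGA (1.55) and TTTTTTTT (0.496) did not. Within 25 bp of the summit TTTCAG did not pass (0.697) and TTTTTTTT turned direction (1.10); each replicate alone gave TTTTTTTT 0.676 to 0.685. Added after seeing the data were the peaks at coding genes alone (GAGAGA 1.42, GGTTCGA 1.89), tRNA genes of unique sequence, which did not pass (1.27), head-to-head pairs as the denominator, which turned the divergent share (1.12), coding 5' ends alone (0.559) and the autosomes without chromosome IV. The GC difference on X was 14.6 points in the stronger 3337 peaks, 13.8 and 12.9 points with windows of 250 and 1000 bp, 14.1 points within 25 bp and 12.8 to 13.2 points in the single replicates. The median coding distance was -188, -128 and -211 bp in the stronger peaks and with those windows, and -184 to -182 bp in the replicates. The stronger 3337 peaks held 392 members, of which 99.7% were in both replicates; any candidate of each replicate gave 99.7% and an overlap of at least 50% gave 80.8%. The cause of these changes was not tested. Counting the nearest 5' end only cannot give a share of divergent peaks. Read depth is unknown, and error from read counts could not be given.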

Other observations

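A count of all 6-base words, and of 1 longer word picked afterwards, gave further differences between X and autosomal peaks at 5' ends. CACACA was within 50 bp of the summit in 19.7% of the 750 X peaks, 4.73% of their flanks and 13.8% of autosomal peaks at 5' ends. CTGCGTC went the other way, with 6.93% of X and 11.8% of autosomal peaks against 0.532% of all 101 bp windows of X, and on X it was in 9.95% of peaks at coding genes and 3.08% of those at tRNA genes. AAAGAG was in 21.6% of X and 14.8% of autosomal peaks, and AGAAGA in 22.3% and 14.5%. These words were picked for their differences, which were not tested. The tested words were not free of choice either, as they were chosen with earlier results of these data known.

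The X chromosome also holds 162 annotated piRNA genes, which encode short RNAs of the germ line, and 13 had a summit within 500 bp (8.02%, exact 95% interval 4.34 to 13.3%), against 2.45% of 15201 on the autosomes. This share was below the 18.4% of all X genes, and the interval holds the 12.3% of genes on all chromosomes. Of these 13, the 3 with the highest pooled signal were 21ur-11723 (164 and 238 in the replicates, shared with nhr-35), 21ur-14279 (176 and 195) and 21ur-14870 (137 and 188), the last with its summit 3 bp from the 5' end and no other gene in the window. Pseudogenes had a peak at 2 of 178, and the snRNA gene M163.13 was 1 of 3, with 112 in replicate 1 and no matched candidate in replicate 2.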
